A study of Mus musculus with 2 samples.

Results

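The 7 genes described here are Ubb, Ube2o, Ube2h, Ube2l6, Trim58, Mkrn1 and Fbxo7, which encode a ubiquitin precursor, E2 ubiquitin-conjugating enzymes and E3 ubiquitin ligase subunits. They were chosen by symbol, with earlier results of these data known, and each matched 1 of the 27998 genes of the count table. Their transcripts were followed across stages of erythroid differentiation set by the surface proteins Ter119, which marks maturing erythroblasts, and CD71, the transferrin receptor. The cells came from pooled fetal livers of untreated C57BL/6 mouse embryos at e13.5. They were partially depleted of Ter119+ cells, after which Ter119+ cells were added back, so the numbers of cells per stage do not give their frequency in the liver. CITE-seq was used, a droplet method in which the transcripts of a cell and the barcodes of antibodies bound to its surface are counted together. All 7863 cells of the cDNA library were also in the antibody library, and the pair is 1 sample with no replicate. No p-value is therefore given, and every interval is a 95% interval for counting error only, which leaves out differences between embryos, libraries and gates.

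Ubiquitin is a small protein that is attached to other proteins, most often to mark them for destruction by the proteasome. An E1 enzyme activates ubiquitin, an E2 enzyme carries it, and an E3 ligase selects the protein that receives it. Several genes encode ubiquitin, among them the polyubiquitin gene Ubb and Rps27a, which encodes ubiquitin fused to a ribosomal protein. During terminal erythroid differentiation the cell discards most of its proteins and organelles while haemoglobin accumulates, and the ubiquitin system is known to take part in that remodelling.

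Quality limits and doublet removal left 7244 cells, of which 5949 fell into the 6 stages S0-low (1395 cells), S0-medium (1000), S1 (602), S2 (1258), S3 (835) and S4/S5 (859). The stages follow a rise in CD71 among cells with low Ter119 (S0-low to S1), then a rise in Ter119 (S2 and S3) and a loss of CD71 (S4/S5). Terminal erythroid genes rose with these labels, their summed level going from 12239 CPM (counts scaled to 1000000 UMIs per cell) in S0-low to 635077 in S4/S5. Depth and composition changed as well. UMIs are counts of single transcript molecules. Their median per cell was 6011 in S0-low, rose to 10285 in S0-medium and was 3944 in S4/S5. Globin genes took 1.08% of UMIs in S0-low, 38.8% in S3 and 64.9% in S4/S5, and the median mitochondrial share went from 4.32% in S0-low to 1.06% in S4/S5. A CPM divides by all UMIs of a cell, so it depends on the globin share of a cell and on its total UMIs, both of which changed. Levels are therefore also given without globin in the denominator and as UMIs per cell. S0-low held 236 cells (16.9%) of clusters named hepatocyte-like, megakaryocyte-like, myeloid-like or macrophage-like, against at most 0.498% in the stages that follow, and hepatocyte markers summed to 7256 CPM there against 408 to 896 CPM elsewhere. Leaving these cells out moved no ratio of the 7 genes by more than 1.20 times. This bound covers the named clusters only. An unnamed cluster of 59 cells had Col3a1, Dcn and Lyve1 among its top 10 genes, and another of 491 cells had Cd34 and Coro1a. Neither cluster was left out, and their part in S0-low was not tested. Cells with over 5% of their globin UMIs from embryonic globin genes made up 7.89% of S0-low, 3.59% of S3 and 6.64% of S4/S5. Leaving them out of S3 and S4/S5 moved no ratio by more than 1.07 times. That limit does not cover their part in S0-low.

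Ubb, a polyubiquitin gene (ENSMUSG00000019505, mm10 chr11:62551171-62553213), was transcribed in every stage and rose late. Over the stages S0-low, S0-medium, S1, S2, S3 and S4/S5 its mean level was 1032, 1050, 1014, 1175, 2000 and 3086 CPM. The intervals of the first 3 stages overlapped, and the S3 and S4/S5 intervals (1953 to 2047 and 3027 to 3147 CPM) did not overlap with those of any earlier stage. In UMIs per cell the course was flatter, at 8.68, 11.6, 10.8, 8.12, 9.75 and 12.9 over the same 6 stages. Ubb was not confined to erythroid cells, since its level in the 189 hepatocyte-like cells was 1612 CPM (1553 to 1674), above that of S2.

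The 3 members that are E2 enzymes were all higher in S3 than in S0-low and differed in their course. Ube2l6 (ENSMUSG00000027078, chr2:84798828-84810003), an E2 known for carrying the ubiquitin-like protein ISG15, rose first. Its mean level over the 6 stages was 28.2, 73.0, 148, 493, 909 and 934 CPM. Each stage up to S3 was above the one before it, and S3 and S4/S5 overlapped (878 to 941 and 901 to 968 CPM). Ube2o (ENSMUSG00000020802, chr11:116537740-116581503), a large enzyme that combines E2 and E3 activity and is known to target ribosomal proteins in reticulocytes, stayed between 12.6 and 14.6 CPM from S0-low to S1. It then reached 31.7 CPM in S2, 108 in S3 and 152 in S4/S5. Ube2h (ENSMUSG00000039159, chr6:30211289-30304539), the E2 that works with the CTLH ligase complex, was at 11, 8.65, 7.69 and 12.4 CPM over the first 4 stages, whose intervals all overlapped, although the ratio of S2 to S1 (1.61, 1.09 to 2.38) left out 1. It reached 46.5 CPM in S3 and 79.7 in S4/S5. In hepatocyte-like cells Ube2l6 was at 52.1 CPM, Ube2o at 14.5 and Ube2h at 18.2, in each case below the S3 level.

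Of the E3 members with enough counts, Mkrn1 rose most and Fbxo7 rose and fell. Mkrn1 (ENSMUSG00000029922, chr6:39397804-39423299), a RING-type E3 ligase of the makorin family, had mean levels of 106, 166, 182, 349, 1020 and 1997 CPM over the 6 stages. S0-medium and S1 overlapped in their intervals, and every other stage was apart from its neighbours. In hepatocyte-like, megakaryocyte-like, myeloid-like and macrophage-like cells Mkrn1 was at 46.1, 143, 108 and 203 CPM, in each case below the S2 level. Fbxo7 (ENSMUSG00000001786, chr10:86020449-86051873), the substrate-binding subunit of an SCF ligase that is also known for its part in mitophagy, went from 35.0 CPM at the S0-low stage through 58.7 and 69.1 to 98.0 at S2. It was at 90.9 CPM in S3, whose interval (81.4 to 101) overlapped that of S2 (90.6 to 106), and at 64.0 in S4/S5. The fall from S3 to S4/S5 was absent when globin was left out of the denominator, where Fbxo7 stood at 165 and 173 CPM, and present in UMIs per cell, at 0.475 and 0.261. By CPM the median of all genes tested fell further at that step, to 0.530 times, against 0.705 times for Fbxo7.

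Trim58 (ENSMUSG00000037124, chr11:58640465-58652404), an erythroid E3 ligase known to drive loss of the dynein motor, was barely detected. It had 7, 14, 5, 11, 16 and 13 UMIs over the 6 stages. These correspond to 0.660, 1.75, 0.865, 2.02, 4.34 and 4.09 CPM, and all 6 intervals overlapped except that S3 and S4/S5 lay above S0-low. In S3 1.92% of cells (1.10 to 3.09) held a Trim58 UMI, and in S4/S5 1.51% (0.808 to 2.57) did at a median of 3944 UMIs per cell. None of the 189 hepatocyte-like cells did at a median of 13001 UMIs, and 0 of 189 allows a share of up to 1.59% when 3 counts are taken as the limit, or 1.93% by the exact interval. The S3 and S4/S5 shares were not apart from that limit at this depth. Megakaryocyte-like cells had 3 Trim58 UMIs in 248 cells (3.15 CPM, 0.587 to 10.7), an interval that holds the S3 and S4/S5 levels. Myeloid-like cells had 1 in 263 cells and macrophage-like cells 0 in 80. The ratio of the mean level to S0-low was 6.57 (2.48 to 17.4) in S3 and 6.20 (2.30 to 16.7) in S4/S5, from 7 UMIs in S0-low.

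**Figure D1:**
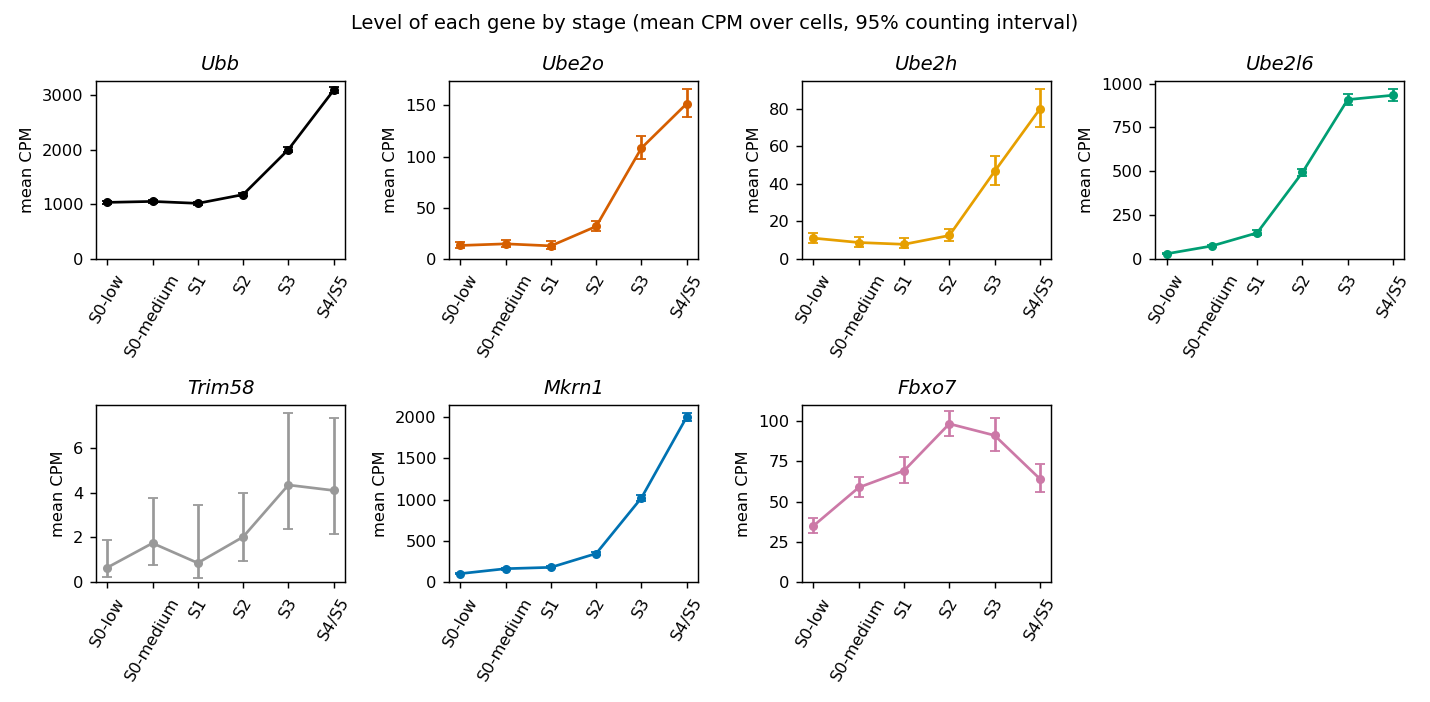
Mean level of each of the 7 genes (y axis, CPM, linear and starting at 0) in the 6 stages (x axis), with bars for the 95% counting interval. Ubb, Ube2o, Ube2h and Mkrn1 are highest in S4/S5, Ube2l6 levels off from 909 CPM in S3 to 934 in S4/S5, Fbxo7 peaks at 98.0 CPM in S2, and Trim58 stays under 5 CPM.

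Upstream sequences of 6 of the 7 genes were read from RefSeq (GRCm38.p6, the NCBI name of mm10) to see which of 4 short motifs they hold. The 250 bases before the start are printed 5′ to 3′ on the gene's own strand for the 4 genes whose window ends at the outermost start of the gene. Capitals mark, on either strand, GATAA (the core of the GATA factor motif), CACCC (read by KLF factors), CCAAT and TATAA.
Ubb, chr11:62550921-62551170, plus strand: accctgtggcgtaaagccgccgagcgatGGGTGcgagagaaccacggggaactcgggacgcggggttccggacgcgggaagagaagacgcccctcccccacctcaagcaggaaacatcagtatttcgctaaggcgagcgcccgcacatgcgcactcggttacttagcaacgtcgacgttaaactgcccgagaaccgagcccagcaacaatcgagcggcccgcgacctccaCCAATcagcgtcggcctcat
Ube2h, chr6:30304540-30304789, minus strand: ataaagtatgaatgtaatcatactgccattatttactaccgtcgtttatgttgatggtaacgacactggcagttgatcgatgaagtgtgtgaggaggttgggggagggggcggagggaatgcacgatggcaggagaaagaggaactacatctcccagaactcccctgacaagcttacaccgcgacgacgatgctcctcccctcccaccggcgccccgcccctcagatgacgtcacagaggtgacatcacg
Ube2l6, chr2:84798578-84798827, plus strand: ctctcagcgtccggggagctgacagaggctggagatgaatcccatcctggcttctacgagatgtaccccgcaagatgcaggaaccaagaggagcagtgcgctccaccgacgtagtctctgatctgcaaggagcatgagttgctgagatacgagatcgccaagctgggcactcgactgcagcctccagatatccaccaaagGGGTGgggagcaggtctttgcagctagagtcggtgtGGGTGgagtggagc
Trim58, chr11:58640215-58640464, plus strand: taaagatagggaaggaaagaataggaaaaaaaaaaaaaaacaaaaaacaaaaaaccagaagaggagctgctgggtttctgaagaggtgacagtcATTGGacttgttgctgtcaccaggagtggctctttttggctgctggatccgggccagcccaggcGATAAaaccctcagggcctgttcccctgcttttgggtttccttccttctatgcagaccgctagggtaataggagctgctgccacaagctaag

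Trim58 was the only one of these 4 windows with GATAA, which 22.6% of 32851 RefSeq promoter windows of the same length hold. CACCC was found once in the Ubb window and at 2 places in that of Ube2l6, and 52.0% of all windows hold it. CCAAT was found in the windows of Ubb and Trim58, against 33.8% of all windows, and TATAA, held by 22.8%, in none of the 4. The Ube2h window held none of the 4 motifs. Over all 10 windows of these 6 genes, alternative starts included, GATAA was found in 2, that of Trim58 and that of a second start of Ube2h.

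The question that the stage series addresses is how transcript levels change from progenitors to terminal erythroblasts. A gene was called higher when its mean CPM was at least 2-fold that of the earlier stage with an interval that leaves out 1, among genes with at least 50 UMIs in both stages together. Trim58 did not pass that filter. The other 6 did, and each had at least 98 UMIs in S0-low alone. From S0-low to S3, 5 of these 6 were called higher, against 5.86% of 9131 genes, and none lower, against 70.7% of genes. Because the members were chosen with earlier results of these data known, this and the later comparisons with all genes are a description only. Ube2l6 rose 32.2-fold (27.7 to 37.4), Mkrn1 9.60-fold (8.88 to 10.4), Ube2o 8.34-fold (6.71 to 10.4), Ube2h 4.24-fold (3.21 to 5.59) and Fbxo7 2.60-fold (2.20 to 3.06). Ubb, at 1.94-fold (1.88 to 2.0), fell just under the limit. From S0-low to S4/S5, 5 of the 6 were again called, against 3.74% of 8999 genes, with none lower against 87.3%. Here Ubb (2.99-fold, 2.91 to 3.08) passed, and Fbxo7 (1.83-fold, 1.52 to 2.20) did not. Mkrn1 was 18.8-fold (17.4 to 20.3) and Ube2l6 33.1-fold (28.5 to 38.4) above S0-low, with Ube2o at 11.7-fold and Ube2h at 7.26-fold. The size depends on the gates: with antibodies scaled within each cell the S3 values were 60.1-fold for Ube2l6 and 18.1-fold for Mkrn1.

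The scale sets the size of these values. The median gene was at 0.311 times its S0-low level in S3 and at 0.168 times in S4/S5, a median log2 ratio of -1.69 and -2.57. Without globin in the denominator the medians were -0.95 and -1.03. On that scale 6 of the 6 genes were called higher in S3, against 10.9% of genes, and 6 of 6 in S4/S5, against 8.43%. Ubb then rose 9.48-fold and Fbxo7 4.83-fold from S0-low to S4/S5. Counted as UMIs per cell, with no denominator, 4 of 6 were called higher in each comparison, against 3.95% of genes in S3 and 2.18% in S4/S5, where the median log2 ratios were -1.94 and -3.29. Mkrn1 was 11.2-fold, Ube2l6 21.3-fold, Ube2o 6.25-fold and Ube2h 4.46-fold above S0-low in S4/S5, whereas Ubb was at 1.48-fold and Fbxo7 at 1.07-fold. These are measured at a lower depth in S4/S5 than in S0-low. The increases of Ube2l6, Mkrn1, Ube2o and Ube2h were thus at least 2-fold on all 3 scales, and those of Ubb and Fbxo7 were not.

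**Figure D2:**
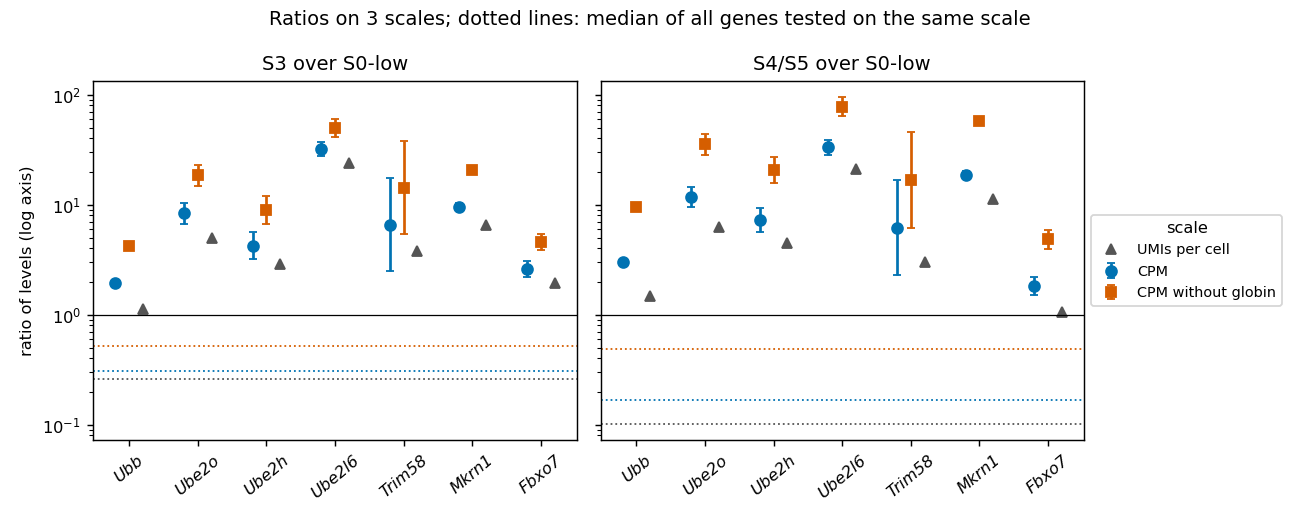
Ratio of the level in S3 (left) and S4/S5 (right) to that in S0-low for the 7 genes, on a log axis and on 3 scales, with 95% counting intervals for both CPM scales. Dotted lines mark the median of all genes tested on the scale of the same colour, and all 7 genes lie above them in both panels.

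The last step is the loss of CD71. From S3 to S4/S5 none of the 6 genes reached 2-fold, and with 0.129% of 5410 genes called higher that count is near the background. None was called lower either, against 43.3% of genes, and the median gene was at 0.530 times its S3 level. Mkrn1 came closest at 1.96-fold (1.88 to 2.04), followed by Ube2h at 1.71 (1.40 to 2.1), Ubb at 1.54 (1.5 to 1.59) and Ube2o at 1.40 (1.22 to 1.61), whose intervals all lay above 1. Ube2l6 was at 1.03 (0.978 to 1.08) and Fbxo7 at 0.705 (0.593 to 0.837). The direction for Ube2l6 depends on the scale, at 1.56-fold (1.48 to 1.64) without globin and 0.895 times in UMIs per cell. Without globin, 3 of 6 were called higher, against 2.85% of genes, these being Mkrn1 (2.80-fold), Ube2h (2.32-fold) and Ubb (2.26-fold). The count by CPM, where none was called, is close to its limit. It rose to 1 under several alternatives given in the closing section.

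Between neighbouring stages up to S3 the share of all genes called higher was 1.52%, 0.489%, 2.19% and 1.58%, and 1, 1, 2 and 3 of the 6 members were called. Ube2l6 rose 2.59-fold from S0-low to S0-medium, 2.02-fold from there to S1 and 3.34-fold from S1 to S2. By CPM no other member was called at either of the first 2 steps. The second of these was 1.86-fold without globin in the denominator, where no member was called at that step, against 0.559% of genes. Ube2o was called from S1 to S2 (2.51-fold, 1.85 to 3.42) and again from S2 to S3 (3.42-fold, 2.86 to 4.10). Ube2h (3.76-fold, 2.84 to 4.98) and Mkrn1 (2.93-fold, 2.77 to 3.09) were called from S2 to S3 by CPM and at no other of these steps. Without globin both were also called from S1 to S2, at 2.32-fold (1.53 to 3.52) and 2.66-fold (2.43 to 2.92), so the step at which a gene was called depends on the scale. On that scale 4 of 6 members were called from S1 to S2, against 4.33% of genes, and 5 of 6 from S2 to S3, against 5.01%. The rise of Ube2o from S1 to S2 was 1.11-fold when the stages were cut on log10 antibody counts, so that step depends on the gate. In UMIs per cell the same rise was 1.37-fold, beside a median log2 ratio of -0.866 over all genes. On that scale Fbxo7 rose 2.25-fold from S0-low to S0-medium, beside a median log2 ratio of 0.392.

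Shares within a gene family carry no globin denominator. Among the UMIs of Ubb and Rps27a together, a pair chosen after the values were seen, Ubb took 20.5%, 19.3%, 16.8%, 19.2%, 43.4% and 78.9% over the 6 stages. The interval was 20.2 to 20.8 in S0-low, 42.7 to 44.1 in S3 and 78.2 to 79.6 in S4/S5. The level of Rps27a, the fusion with ribosomal protein S27a, went from 4415 CPM in S0-low to 706 in S4/S5, while that of Ubb rose. Ubiquitin genes share near-identical sequence, so the share may also reflect how reads that match several genes were counted.

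The 3 E2 members together took 0.780% (0.712 to 0.852) of the UMIs of 36 E2 genes at the S0-low stage, then 1.15%, 2.28%, 7.02% and 14.2%, and 21.0% (20.5 to 21.6) at the last. Ube2l6 accounted for most of this, with 0.402% in S0-low and 16.9% in S4/S5. Ube2o went from 0.220% to 2.71% and Ube2h from 0.158% to 1.40%. The share in hepatocyte-like cells was 2.44%. Further E2 genes, named after their values were seen, also gained share. Ube2b, a partner of the RAD18 ligase, went from 3.25% to 15.6%, and Ube2c, the E2 of the anaphase-promoting complex, from 6.55% to 21.7%. Smaller gains were those of Ube2e3 (4.65% to 9.59%), Ube2r2 (1.45% to 2.88%) and Ube2f (1.90% to 2.96%). No other gene of the 36 gained share from S0-low to S4/S5. The E2 genes had 61944 UMIs in the 1395 S0-low cells and 19273 in the 859 S4/S5 cells.

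**Figure D3:**
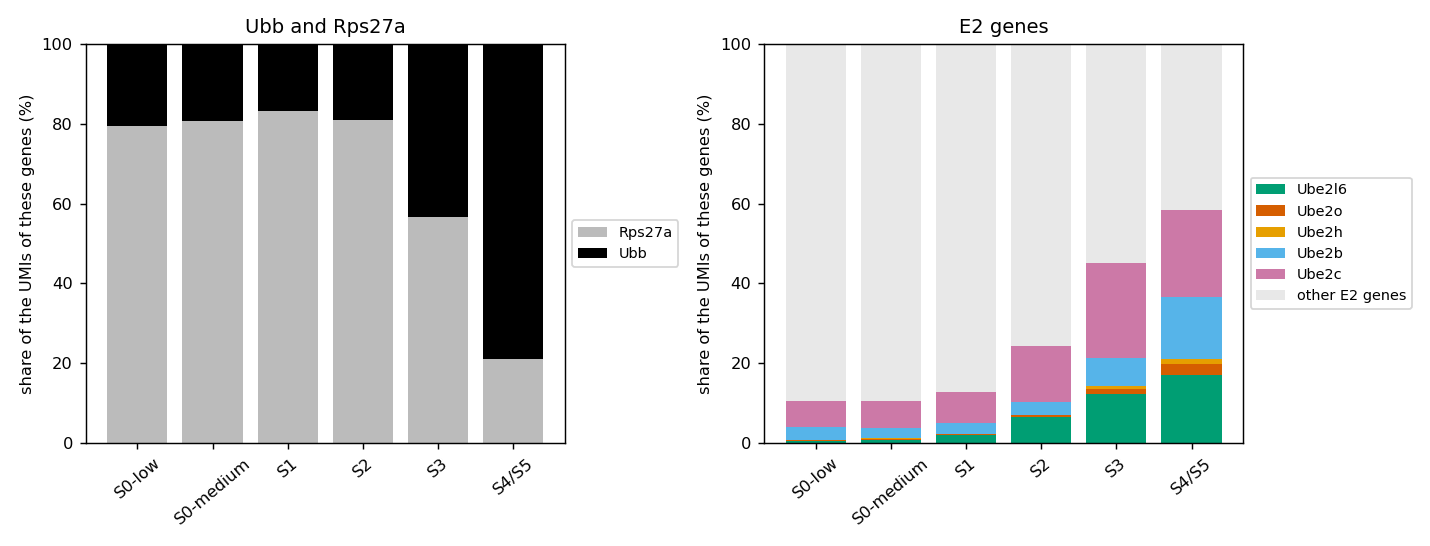
Share (y axis, percent) of the UMIs of Ubb and Rps27a together (left) and of 36 E2 genes (right) held by each gene in each stage. Ubb grows from 20.5% of the Ubb and Rps27a pool in S0-low to 78.9% in S4/S5, and Ube2l6, Ube2o and Ube2h from 0.780% to 21.0% of the E2 pool.

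Cells with high Ter119 were then ordered by CD71 and divided into 5 equal groups of 338 or 339 cells. CD71 is lost as these cells mature, and the globin share rose from 31.9% of UMIs in the group with most CD71 to 71.7% in the group with least. Mkrn1 went from 790 CPM with most CD71 through 1050, 1579 and 1938 to 2217 with least. Ubb went from 1614 through 2189 and 2734 to 3138 and 3075. Ube2o (92.5 to 139 CPM) and Ube2h (41.0 to 67.0 CPM) were highest in the group with the second lowest CD71, at 162 and 91.1 CPM. Ube2l6 stayed between 838 and 1011 CPM, and went from 1571 to 3060 CPM without globin in the denominator. Fbxo7 went from 108 to 47.4 CPM and in UMIs per cell from 0.609 to 0.183. Without globin Fbxo7 lay between 146 and 190 CPM, with 178 in the group with most CD71 and 154 in that with least, so its fall depends on the scale.

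Ordered by the share of globin among their UMIs, the same cells showed a maximum before the end. In 5 equal groups from the lowest to the highest globin share, Mkrn1 was at 539 CPM in group 1, 2433 in group 4 and 1898 in group 5, and Ubb at 1292, 3709 and 2575. Ube2o peaked in group 4 (203 CPM) and Ube2h in group 3 (116 CPM), against 88.9 and 40.3 CPM in group 5. Fbxo7 went from 106 CPM in group 1 to 17.6 in group 5. The ordering variable is also part of the CPM denominator. Without globin, Mkrn1 (746 to 8559 CPM), Ubb (1757 to 11902 CPM) and Ube2l6 (889 to 3355 CPM) rose through all 5 groups, whereas Ube2o, Ube2h and Fbxo7 still were lower in group 5 than in group 4. Cells with over 5% embryonic globin made up 16% of group 5 and at most 3.83% of the others, and their part in these values was not tested.

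**Figure D4:**
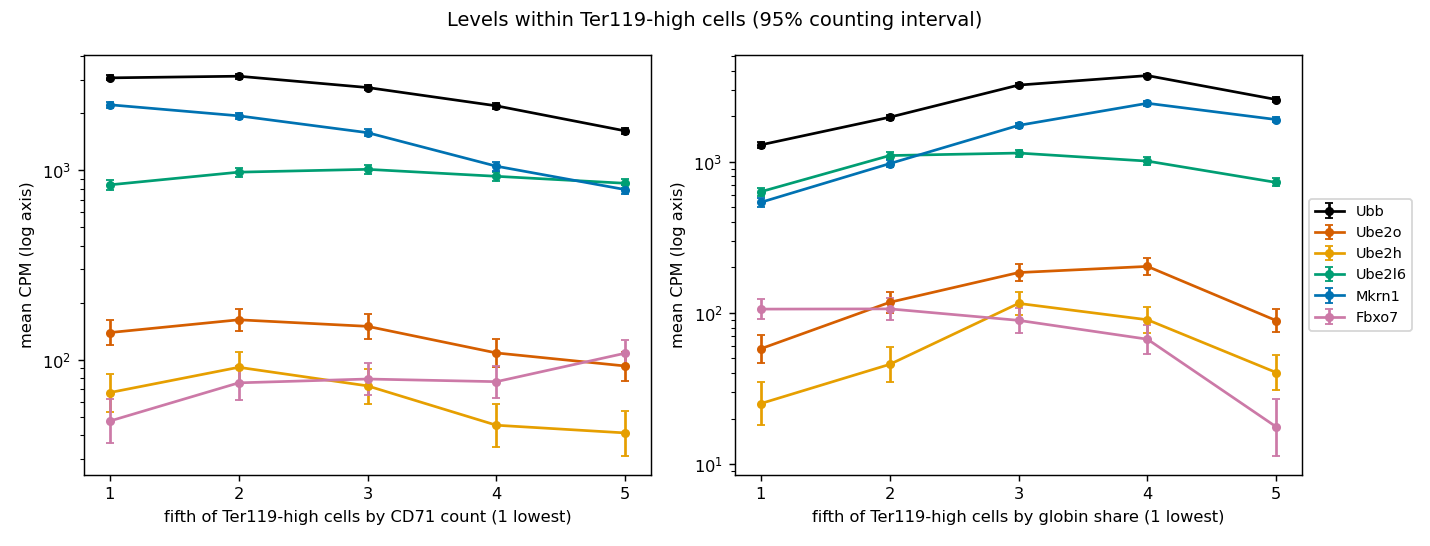
Mean level (y axis, CPM, log axis) of the 6 genes with enough UMIs in Ter119-high cells, in 5 groups ordered by CD71 count (left) or by globin share (right), with 95% counting intervals. Towards low CD71, at the left of the left panel, Mkrn1 and Ubb go up to 2217 and 3075 CPM while Fbxo7 goes down to 47.4 CPM, a fall that is small without globin in the denominator (178 to 154 CPM).

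Among Ter119-low cells outside the named clusters, ordered by CD71 in the same way, Ube2l6 went from 24.8 CPM in the group with least CD71 to 153 in that with most, Mkrn1 from 99.4 to 183 and Fbxo7 from 25.6 to 69.4. Ubb stayed between 931 and 1064 CPM. Ube2o (11.8 to 17.1 CPM) and Ube2h (6.97 to 12.8 CPM) showed no rise with CD71. The median depth of these groups went from 5220.5 to 10072 UMIs per cell.

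The rest of the ubiquitin system mostly followed the fall of the median gene. From S0-low to S4/S5, 5 of the 32 E2 genes with enough UMIs were called higher and 23 lower, and of the 29 that are no members, 2 were higher (Ube2b, 4.67-fold, and Ube2c, 3.12-fold) and 23 lower. Of 8 E1 genes, 1 was higher and 6 lower. The higher one was Uba7 (2.46-fold, 1.60 to 3.79), the E1 of ISG15. Of 53 deubiquitinases, which remove ubiquitin, 2 were higher (Usp32, 4.74-fold, and Otub2, 2.91-fold) and 43 lower, among them Usp38 (0.0324 times, 0.0111 to 0.0946) and Usp30 (0.0123 times, 0.00169 to 0.0893, with 1 UMI in S4/S5). These shares stand beside 3.74% higher and 87.3% lower over all genes. Without globin 8 of the 32 E2 genes were higher and 9 lower, and 7 of the 53 deubiquitinases were higher and 18 lower, beside 8.43% higher and 44.8% lower over all genes on that scale.

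The CTLH complex, the ligase that receives ubiquitin from UBE2H, split. Of its 11 genes 3 were called higher and 6 lower, against 3.74% higher and 87.3% lower over all genes. Ypel5 rose from 10.2 CPM in S0-low to 166 in S3 and 208 in S4/S5 (20.4-fold, 15.8 to 26.3), Ranbp10 3.44-fold (2.66 to 4.44) and Wdr26 2.32-fold (2.07 to 2.60). Gid4, its substrate receptor, fell from 44.6 to 3.23 CPM (0.0725 times) and Ranbp9, the relative of Ranbp10, from 16.7 to 1.31 CPM (0.0783 times). Without globin 4 of the 11 were higher and 4 lower, against 8.43% higher and 44.8% lower over all genes.

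The SCF core, to which FBXO7 binds, had none of its 5 genes higher and 4 lower, with Skp1a at 0.580 times and Cul1 at 0.201 times, and without globin none passed in either direction. With 87.3% of all genes lower by CPM, that count is near the background. Of 40 F-box genes 4 were higher and 28 lower, against 3.74% higher and 87.3% lower over all genes. The same shares stand beside the TRIM, other E3 and ISG15 counts that follow. Fbxo30 (9.71-fold, 7.99 to 11.8) and Fbxo34 (3.26-fold) were among the higher ones, and Fbxl17 and Fbxl18, with 87 and 101 UMIs in S0-low, had 0 in S4/S5. Of 22 TRIM genes 2 were higher and 16 lower. Trim10, an erythroid TRIM gene, rose from 44.5 to 1010 CPM (22.7-fold, 20.04 to 25.7) and Trim59 3.28-fold. Mkrn2, the paralogue of Mkrn1, went from 20.9 to 4.72 CPM (0.226 times, 0.136 to 0.377), while Mkrn1 rose. The median gene was lower still, at 0.168 times, and without globin Mkrn2 was not called lower. Of 49 other E3 genes 5 were higher and 37 lower, led by March2 (7.83-fold), Rnf11 (5.14-fold) and Rnf10 (3.92-fold), with Traf6 (0.0315 times, 0.00761 to 0.13, from 2 UMIs) at the other end. Of 11 dynein genes, whose motor TRIM58 targets, none was higher and 10 were lower by CPM, and 1 was higher and 3 lower without globin, against 87.3% and 44.8% of all genes lower on these scales. Of the 4 ISG15 and interferon genes that passed, Uba7 was higher and 3 were lower. Isg15 itself did not pass the filter, and its levels rest on few UMIs. It was at 0.349 CPM in S0-low, 9.81 in S3 and 2.75 in S4/S5. All 12 genes of that list together had 109 UMIs in S4/S5, of which Uba7 had 49.

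**Figure D5:**
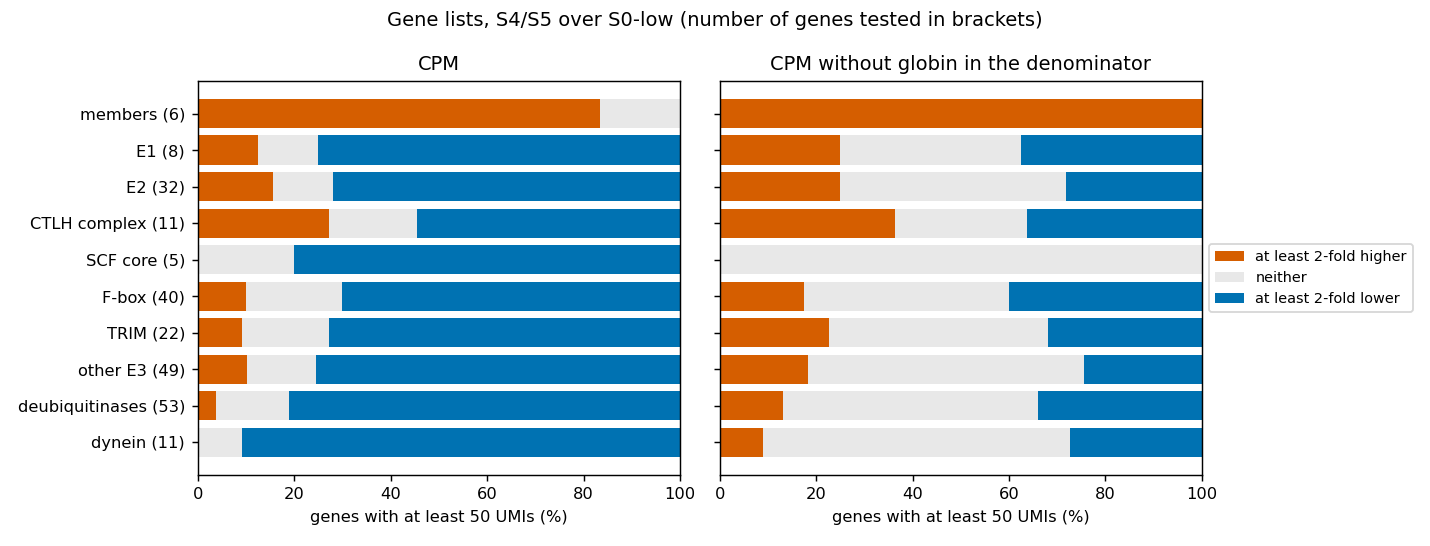
Percent of genes of each list (x axis; number tested in brackets) that were at least 2-fold higher, at least 2-fold lower or neither in S4/S5 over S0-low, with CPM (left) and CPM without globin (right). The members were chosen with such results known, so their bar is a description. By CPM, 3 of 11 CTLH genes and 5 of 32 E2 genes were higher, against 3.74% of all genes.

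The genes whose stage profile was nearest to each member were found by the root mean square difference of centred log2(CPM + 10) over the 6 stages, among 8075 genes with at least 200 UMIs. Ube2b was nearest to Ube2h (0.077), followed by Lgmn and Pepd. Bcl2l1 was nearest to Mkrn1 (0.145), then Fam46c and Bpgm. Fbxo7 was nearest to Bsg (0.080), then to Pkhd1l1 and Tmx1. Ubb was nearest to 3110002H16Rik (0.089), then to Pink1 and D930015E06Rik, and Ube2o to Hsd3b6 (0.115), Fbxo30 and Bsdc1. The added 10 CPM flattens genes of low level and so sets part of these distances. With 1 CPM added instead, an alternative chosen after seeing the data, the nearest gene was another one for each of the 6 ranked members, and between 0 and 2 of the 3 nearest were shared. Among the members themselves Ubb and Ube2h were the closest pair with 10 CPM (0.306) and Ube2o and Mkrn1 with 1 CPM (0.277), and Ube2l6 and Fbxo7 were the farthest with both (1.45 and 1.52). With 6 points per gene, which share their cells' depth and globin share, these distances are a description. Trim58, with 66 UMIs, was not ranked.

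Within a stage, cells thinned to 2000 UMIs each gave weak rank correlations between members. The highest was that of Ubb with Mkrn1, at 0.375 over 835 cells of S3 and 0.231 over 859 cells of S4/S5. Ube2o with Mkrn1 stood at 0.226 in S3 and 0.038 in S4/S5, and pairs with Fbxo7 lay between -0.070 and 0.070. The cells share 1 library and differ in globin share, which takes part of the same 2000 UMIs.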

How the data were processed

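The data are 1 CITE-seq sample of fetal liver cells. Per the methods, the authors aligned the cDNA reads (10x 3′ v2 kit) against mm10 using Cell Ranger (v2.1.1). They deposited raw UMI counts by gene and raw antibody counts from CITE-seq-Count, before the gene and mitochondrial limits. No cell in the counts had under 2510 UMIs, so shallower barcodes are absent. Whether antibody reads were collapsed by molecular identifier is not given in the sources used here. The cDNA library held 58606632 UMIs (median 5707 per cell, range 2510 to 38047).

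The limits of the study (300 to 5000 genes, up to 9% mitochondrial UMIs) removed 508 cells. Scrublet's method (expected rate 6%) called 128 doublets among all 7863 cells, some of them among those 508. With both removed, 7244 cells were kept. Antibody counts were scaled as centred log ratios across cells. Lineage-low cells had at most 73.6 summed counts of 5 lineage antibodies, which is the median plus 2 scaled MAD. Stages were cut by k-means on Ter119 (borders 24.5 and 88.5 counts) and CD71 (242.5 and 769.5 counts in Ter119-low, 720.5 in Ter119-high cells), in place of the study's sort gates. Of 6160 lineage-low cells, 211 fell in no stage.

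CPM was averaged over cells, with Fay-Feuer gamma intervals. Ratios have log-scale intervals and shares exact Clopper-Pearson intervals. The ratio step was run on counts simulated from the S0-low composition, without globin expansion or spread between cells beyond depth and counting error. It therefore does not cover those features of the data. No test between stages was run. Clusters were made with scanpy 1.11.5 and named from markers. Positions and promoters are from RefSeq on GRCm38.p6. The text names the 7 members, the 3 largest and 2 smallest ratios (S4/S5 over S0-low) per list, and the 3 nearest profiles per member, and some results under this rule are not reported here. Members and lists were chosen with earlier results of these data known.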

Additional observations from a re-analysis of the deposited data

How the results depend on the processing

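The limit of these data is 1 library, so intervals leave out the spread between embryos, and Trim58, with 66 UMIs, is measured with wide intervals. No paired analysis was possible because the groups are stages of 1 sample, not replicates. The count of members at least 2-fold higher in S3 or S4/S5 over S0-low was 5 and ranged from 4 to 6 over the alternatives run. Over S3, the count in S4/S5 went from 0 to 1 with log10 antibody counts, Gaussian mixture classes, doublets kept, primitive-like cells left out, pooled CPM, and a lineage limit on the log scale (95.8 counts, an alternative chosen after seeing the data), and to 3 with globin left out of the denominator. The share of Ubb among Ubb and Rps27a UMIs in S4/S5, chosen after seeing the data, was 78.9%, and it was 81.6% with antibodies scaled within each cell, 79.6% with Gaussian mixture classes, 80.03% with border cells left out, 69.01% without a lineage limit, 78.04% with doublets kept, 81.3% after thinning and 77.7% with the lineage limit on the log scale. Among the 35 ratios whose interval left out 1, directions turned for Fbxo7 from S0-medium to S1 after thinning (0.991 times) and from S3 to S4/S5 without globin (1.05 times), and, as UMIs per cell, from S1 to S2 for Ubb (0.754), Ube2h (0.907) and Fbxo7 (0.971). Of the 14 ratios whose interval covered 1, 12 turned under at least 1 alternative, among them Fbxo7 from S2 to S3 (0.927 times, 1.30 without globin). With other gates the rise of Ube2l6 from S0-low to S3 reached 60.1-fold and that of Mkrn1 18.1-fold (antibodies scaled within each cell). The cause of these shifts was not tested.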
